A study of Mus musculus with 12 samples.

Results

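The genes described here are 53 genes of G2 phase and mitosis, listed by symbol from the cyclin-dependent kinase that starts mitosis to the proteins that split the cell, and measured in mouse leukaemia cells treated with 4EGI-1. Each gene is represented by its brightest probe set over the 12 arrays. Of the 53, 52 had a probe set with their symbol alone, among 19937 genes named in this way, and all 52 passed the filter on dim genes (a mean log2 value of at least 6.0), as did 13180 genes in all. Ccnb1, which encodes cyclin B1, was not analysed here.

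The cells were a clone, number 483, of T cell acute lymphoblastic leukaemia (T-ALL) on a C57BL6 background, and all 4 groups came from it. The groups were cytoplasmic RNA of cells given 100 µM 4EGI-1 for 2 h, cytoplasmic RNA of control cells, polysomal RNA of cells given 4EGI-1 and polysomal RNA of control cells, with 3 arrays each. 4EGI-1 is a small molecule that keeps the cap-binding protein eIF4E from the scaffold eIF4G. The control cells are untreated in the labels and given DMSO, the solvent, in the protocol. The polysomal RNA was pooled from the sucrose gradient fractions that hold messages with several ribosomes. The cytoplasmic RNA is called total in the sample titles and was taken from whole cells by the design text, so it may hold nuclear RNA.

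Entry into mitosis is driven by Cdk1 with cyclins A and B, by the kinases Plk1 and Aurora A, and by CDC25 phosphatases that activate Cdk1. Kinesins then build the spindle and move chromosomes, the kinetochore and the spindle checkpoint hold the cell until every chromosome is attached, and Cdc20 with the anaphase-promoting complex starts the separation. Messages of these genes accumulate in G2 and are repressed in G1 through promoter elements that bind the MuvB complexes and the factor NF-Y. A leukaemia culture holds cells in all phases.

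T-ALL markers were present: 10 of 12 listed genes (the CD3 chains, Zap70, Thy1 and others) were named and all 10 lay above the filter level, with means of 8.04 to 12.1 log2. Marker genes of B cells, myeloid, erythroid and stromal cells had means of 4.42 to 7.21, all below the lowest T-ALL marker mean. Of those named, 2 of 4 B cell, 2 of 5 myeloid, 1 of 1 erythroid and 4 of 4 stromal genes also lay above the filter level. Passing the filter thus does not separate the cell types. Summed over the 10 T-ALL markers, log2 values were 105.7 to 107.8 in cytoplasmic 4EGI-1 arrays and 107.4 to 109.1 in cytoplasmic control arrays, and 106.8 to 107.4 in polysomal 4EGI-1 arrays and 107.5 to 108.0 in polysomal control arrays. The mitotic genes had a median standard deviation (SD) between the 3 arrays of 0.116 in cytoplasmic 4EGI-1, 0.122 in cytoplasmic control, 0.0627 in polysomal 4EGI-1 and 0.0675 in polysomal control RNA. Values are log2 and normalised, so a change is measured against the rest of the array and a change of all translation is not seen. Whether all 12 arrays were normalised in 1 run is not stated, which bears on every comparison between the fractions. How separate the cultures were is stated only as biological replicates, so the p-values reflect a spread that may be partly technical.

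In cytoplasmic RNA the mitotic genes were lower after 4EGI-1. Of 52 genes, 31 fell (59.6%), 0 rose and 21 did not pass (limma, adjusted over all genes), where 7.79% of all 13180 genes tested fell and 10.1% rose. The median change was -0.36 log2, against -0.03 for all genes tested. Of the 52 changes 47 were below 0, against 7383 of all 13180. At an unadjusted p under 0.05, 37 fell and 0 rose, against 2016 and 2004 of all 13180 genes tested. The fall was at least 1.5-fold in 14 genes, against 174 of all 13180. Fewer cells in G2 and mitosis and less of these RNAs in each cell cannot be told apart in RNA of a whole culture. Fitted on the 6 cytoplasmic arrays alone, 21 genes fell, against 369 of all 13180.

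**Figure D1:**
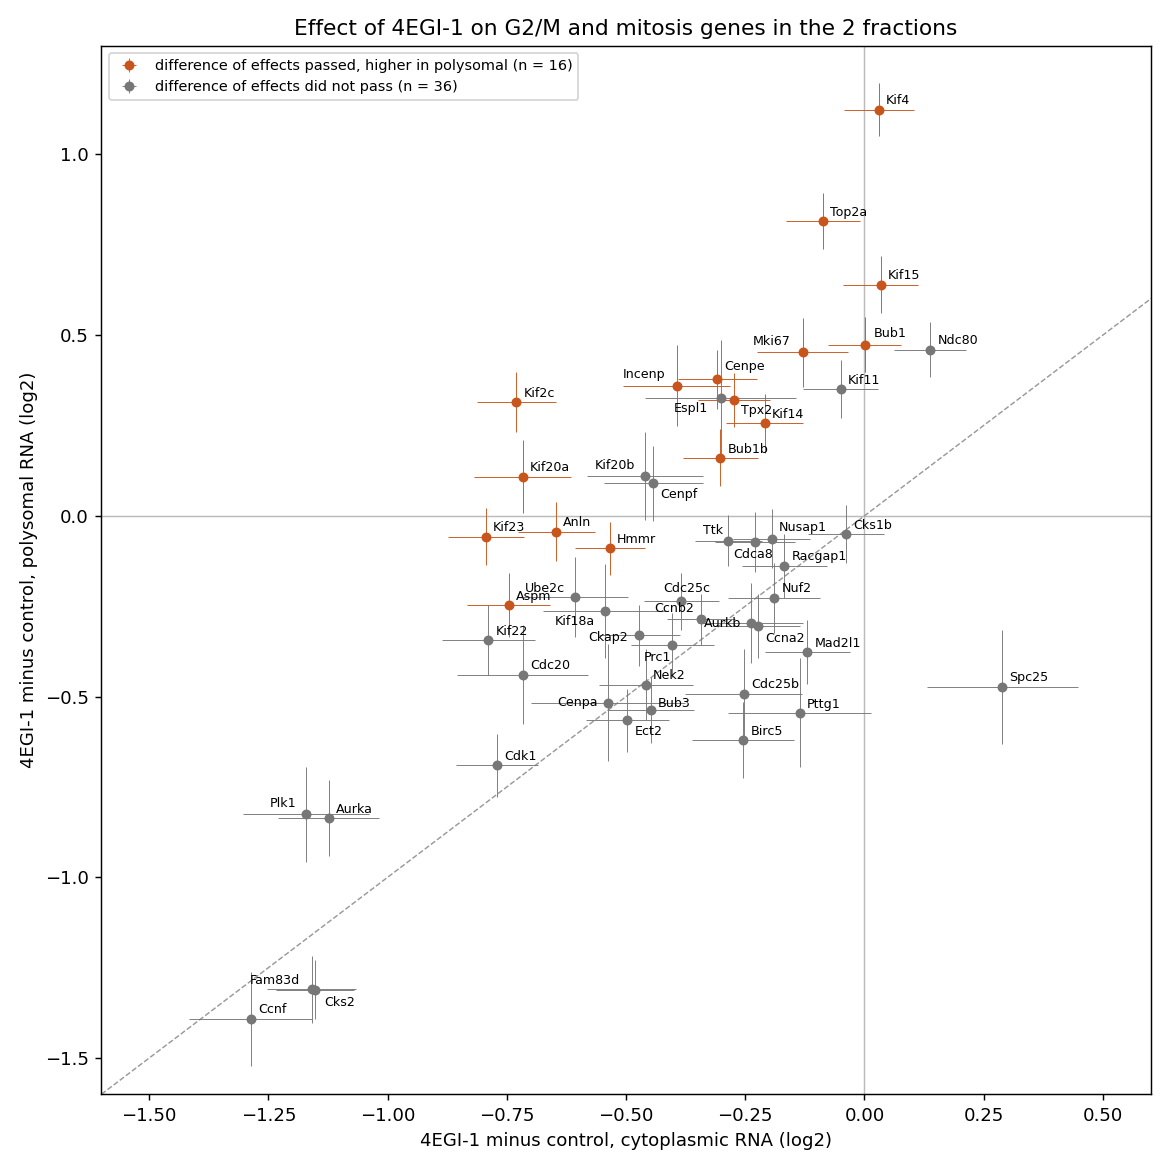
Change with 4EGI-1 in cytoplasmic RNA (x axis, log2) and in polysomal RNA (y axis, log2) of 52 genes, with standard errors from the fit as lines and equal change as the dashed diagonal. The 16 genes in orange passed the test of the difference and lie above the diagonal, and Ccnf, Cks2 and Fam83d lie at the lower left with changes of -1.15 or lower in both fractions.

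The 8 largest cytoplasmic falls were those of Ccnf, Plk1, Fam83d, Cks2, Aurka, Kif23, Kif22 and Cdk1. Ccnf encodes cyclin F, the substrate-binding part of a ubiquitin ligase that acts in G2. Its cytoplasmic values were 7.49, 7.48 and 7.98 with 4EGI-1, against 9.01, 8.76 and 9.04 in control cells. This is a change of -1.29 ± 0.13 log2 (SE, n = 3 arrays per group), 2.44-fold lower (adjusted p = 9.65e-06), and the arrays did not overlap. Plk1, a kinase of mitotic entry and spindle assembly, had 9.43, 9.42 and 9.84 with 4EGI-1, against 10.79, 10.42 and 10.98 in control cells (-1.17 ± 0.13, adjusted p = 2.44e-05). Aurka, which encodes the centrosome kinase Aurora A, had 8.73, 8.64 and 8.96 with 4EGI-1, against 9.85, 9.73 and 10.12 in control cells (-1.12 ± 0.11, adjusted p = 5.6e-06). For both kinase genes every 4EGI-1 array lay below every control array, and 4EGI-1 array 3 was the highest of its group.

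Fam83d encodes a protein that recruits casein kinase 1 to the spindle. It read 6.64, 6.41 and 6.59 with 4EGI-1, not far above the filter level, against 7.86, 7.68 and 7.58 in control cells (-1.16 ± 0.09, adjusted p = 1.31e-06). Cks2, a small protein that binds Cdk1 and docks it on phosphorylated targets, read 9.04, 9.08 and 9.16 with 4EGI-1, against 10.19, 10.19 and 10.35 in control cells (-1.15 ± 0.08, adjusted p = 4.95e-07). Cks1b encodes the other protein of this small family and did not follow it. Its changes were -0.04 ± 0.08 in cytoplasmic (adjusted p = 0.791) and -0.05 ± 0.08 log2 in polysomal RNA (adjusted p = 0.72).

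Cdk1 itself had 9.72, 9.63 and 9.60 with 4EGI-1, against 10.41, 10.40 and 10.44 in control cells, a 1.71-fold lower level (-0.77 ± 0.09, adjusted p = 2.47e-05). Kif23 encodes a kinesin of the central spindle, where the cell will divide. Its values were 10.15, 10.05 and 9.94 with 4EGI-1, against 10.77, 10.97 and 10.79 in control cells (-0.79 ± 0.08, adjusted p = 9.35e-06). Kif22, a kinesin that binds chromosome arms, had 8.10, 7.89 and 8.27 with 4EGI-1, against 8.92, 8.79 and 8.91 in control cells (-0.79 ± 0.10, adjusted p = 5.8e-05). All 8 genes kept their call under each of the 23 alternatives tried for this comparison. Over the whole list, 4EGI-1 and control arrays did not overlap in 36 of 52 genes, where this held for 26.5% of all genes tested.

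Some promoters of these genes carry the letters of a known element of mitotic genes, the cell cycle genes homology region TTTGAA. Most carry those of the CCAAT box bound by NF-Y. Both strands were searched in the 250 bases before the start of each gene (RefSeq, assembly GRCm38.p6), and 47 of the 53 genes were in that table. TTTGAA was present in 19 of 47 (40.4%), against 16.9% of all protein-coding genes in the table, and CCAAT in 36 of 47 (76.6%), against 39.5%. Both were present in 17 of 47 (36.2%), against 6.13%. The E2F-type letters TTGGCGC were present in 12.8%, against 2.93%, and TTCGCGC in 4.26%, against 1.96%, as was TTCGAA, against 1.84%. A match of letters is not a measured binding site.

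The last 120 bases before the start are shown for 4 genes that fell in both fractions, Ccnf (chr17:24251410-24251529, minus strand), Fam83d (chr2:158767979-158768098, plus strand), Cdk1 (chr10:69352913-69353032, minus strand) and Cdc20 (chr4:118437344-118437463, minus strand), and for 2 that rose in polysomal RNA, Top2a (chr11:99024190-99024309, minus strand) and Kif15 (chr9:122950961-122951080, plus strand). Each runs 5′ to 3′ along the gene, and capitals mark TTTGAA and CCAAT, or TTCAAA and ATTGG where they lie on the other strand.
Ccnf: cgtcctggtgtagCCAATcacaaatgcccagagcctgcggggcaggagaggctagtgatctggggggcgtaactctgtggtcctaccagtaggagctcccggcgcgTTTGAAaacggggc
Fam83d: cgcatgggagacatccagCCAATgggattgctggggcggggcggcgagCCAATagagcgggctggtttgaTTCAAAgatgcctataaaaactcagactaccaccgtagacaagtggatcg
Cdk1: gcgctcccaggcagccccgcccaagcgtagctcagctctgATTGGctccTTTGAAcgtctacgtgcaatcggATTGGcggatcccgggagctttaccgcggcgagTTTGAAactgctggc
Cdc20: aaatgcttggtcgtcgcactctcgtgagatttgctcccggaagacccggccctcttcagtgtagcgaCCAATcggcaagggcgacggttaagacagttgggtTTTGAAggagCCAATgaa
Top2a: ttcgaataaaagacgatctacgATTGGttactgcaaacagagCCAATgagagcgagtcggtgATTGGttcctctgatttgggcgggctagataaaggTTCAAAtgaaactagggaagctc
Kif15: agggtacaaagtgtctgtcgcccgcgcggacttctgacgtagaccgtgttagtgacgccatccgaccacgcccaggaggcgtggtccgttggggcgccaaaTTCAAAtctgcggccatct

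In Ccnf, Cdk1 and Cdc20 the TTTGAA nearest the start ended 9, 10 and 13 bases before it, in Fam83d 45 bases before it, and in Top2a and Kif15, whose cytoplasmic RNA did not pass, 18 and 14 bases before it. The 6 genes shown all hold TTTGAA, while Plk1, Cks2, Aurka and Kif23, also among the 8 largest cytoplasmic falls, hold none in the 250 bases. Among genes that fell in cytoplasmic RNA, 12 of 27 with a promoter in the table held TTTGAA and 23 held CCAAT. Among those that did not pass, 7 of 19 held TTTGAA and 12 held CCAAT. These shares are a description of windows, with no test between them.

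In polysomal RNA the same list moved both ways. With 4EGI-1, 22 of 52 genes fell (42.3%) and 12 rose (23.1%), where 12.1% of all genes tested fell and 13% rose. The median change was -0.23 log2, against -0.03 for all genes tested, and the range ran from -1.39 to 1.12. The 4EGI-1 and control arrays did not overlap in 44 of 52 genes, where this held for 48.7% of all genes tested. Without polysomal control array 1 the number that fell was 15 and the number that rose was 9. In that fit 1221 of all 13180 genes tested fell and 1417 rose, against 1599 and 1717 in the main fit. With the 6 polysomal arrays fitted by themselves 27 genes fell and 13 rose, where 20.4% of all genes tested fell and 17.8% rose. In the main fit 25.2% of all genes tested passed in either direction.

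Of the 8 largest polysomal falls, all but that of Birc5 were of genes that also fell in cytoplasmic RNA. Ccnf had polysomal values of 7.64, 7.29 and 7.55 with 4EGI-1, against 8.90, 8.85 and 8.89 in control cells (-1.39 ± 0.13, 2.62-fold lower, adjusted p = 2.46e-06). Cks2 had 9.41, 9.42 and 9.23 with 4EGI-1, against 10.60, 10.69 and 10.71 in control cells (-1.31 ± 0.08, adjusted p = 9.87e-08). Fam83d had 6.51, 6.57 and 6.68 with 4EGI-1, against 7.98, 7.84 and 7.86 in control cells (-1.31 ± 0.09, adjusted p = 2.68e-07). The polysomal minus the cytoplasmic change of these 3 genes was -0.10, -0.16 and -0.15 log2, and none of these differences passed.

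Aurka had polysomal values of 8.99, 8.97 and 8.90 with 4EGI-1, against 9.88, 9.77 and 9.71 in control cells (-0.84 ± 0.11, adjusted p = 3.79e-05). Plk1 had 9.68, 9.66 and 9.74 with 4EGI-1, against 10.59, 10.42 and 10.54 in control cells (-0.83 ± 0.13, adjusted p = 0.000289). Both kinase genes had a smaller fall here than in cytoplasmic RNA, by 0.29 ± 0.15 and 0.35 ± 0.19 log2, and neither of these differences passed (adjusted p = 0.438 and 0.454). Cdk1 had 10.13, 9.94 and 10.05 with 4EGI-1, against 10.90, 10.61 and 10.68 in control cells (-0.69 ± 0.09, adjusted p = 3.51e-05). Ect2, which activates RhoA where the cleavage furrow forms, had 10.70, 10.50 and 10.62 with 4EGI-1, against 11.23, 11.12 and 11.17 in control cells (-0.57 ± 0.09, adjusted p = 0.000218). Its cytoplasmic values were 10.78, 10.68 and 10.61 with 4EGI-1, against 11.21, 11.30 and 11.05 in control cells (-0.50 ± 0.09, adjusted p = 0.00104).

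Birc5, which encodes survivin, the part of the chromosomal passenger complex that reads the centromere, fell in polysomal RNA without passing in cytoplasmic RNA. Its polysomal values were 10.57, 10.62 and 10.58 with 4EGI-1, against 11.16, 11.22 and 11.26 in control cells (-0.62 ± 0.11, adjusted p = 0.000528). Its cytoplasmic values were 10.53, 10.46 and 10.20 with 4EGI-1, against 10.52, 10.89 and 10.55 in control cells, which overlapped (-0.25 ± 0.11, adjusted p = 0.116). The test of the difference between the fractions gave -0.37 ± 0.15 and did not pass (adjusted p = 0.284).

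The largest polysomal rises were those of Kif4, Top2a, Kif15, Bub1, Ndc80, Mki67, Cenpe and Incenp. Kif4 encodes a kinesin that carries proteins to the central spindle and shapes chromosomes with condensin. Its polysomal values were 10.75, 10.61 and 10.76 with 4EGI-1, against 9.54, 9.55 and 9.65 in control cells, a 2.18-fold higher level (1.12 ± 0.07, adjusted p = 1.57e-07). In cytoplasmic RNA it had 10.52, 10.60 and 10.61 with 4EGI-1, against 10.56, 10.53 and 10.55 in control cells (0.03 ± 0.07, adjusted p = 0.825). The 3 polysomal control arrays lay below every other array.

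Top2a encodes the topoisomerase that untangles sister chromosomes. It had polysomal values of 12.11, 11.99 and 12.10 with 4EGI-1, against 11.34, 11.15 and 11.26 in control cells (0.82 ± 0.08, adjusted p = 2.92e-06). Its cytoplasmic values were 12.10, 12.10 and 12.21 with 4EGI-1, against 12.28, 12.16 and 12.23 in control cells, and did not pass (-0.09 ± 0.08, adjusted p = 0.489). Kif15, a kinesin that helps keep the spindle poles apart, had polysomal values of 11.21, 11.10 and 11.19 with 4EGI-1, against 10.50, 10.50 and 10.59 in control cells (0.64 ± 0.08, adjusted p = 3e-05). As for Kif4, the low values of both genes were those of polysomal control RNA.

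Bub1, a checkpoint kinase at the kinetochore, had polysomal values of 11.57, 11.52 and 11.64 with 4EGI-1, against 11.18, 11.05 and 11.09 in control cells (0.47 ± 0.08, adjusted p = 0.000349). Ndc80, the microtubule-binding part of the outer kinetochore, had 11.55, 11.44 and 11.52 with 4EGI-1, against 11.00, 11.03 and 11.10 in control cells (0.46 ± 0.07, adjusted p = 0.000354). Mki67, the proliferation marker that coats mitotic chromosomes, had 11.45, 11.27 and 11.47 with 4EGI-1, against 10.95, 10.98 and 10.90 in control cells (0.45 ± 0.10, adjusted p = 0.00252). The cytoplasmic changes of these 3 genes were 0.00, 0.14 and -0.13 log2 and none passed (adjusted p = 0.998, 0.236 and 0.398).

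Cenpe, the kinetochore motor that moves chromosomes to the spindle equator, and Incenp, the scaffold of the passenger complex, went opposite ways in the fractions. Cenpe had polysomal values of 10.75, 10.58 and 10.72 with 4EGI-1, against 10.28, 10.35 and 10.30 in control cells (0.38 ± 0.08, adjusted p = 0.00308). Its cytoplasmic values were 10.39, 10.51 and 10.30 with 4EGI-1, against 10.71, 10.80 and 10.63 in control cells (-0.31 ± 0.08, adjusted p = 0.0166). The cytoplasmic call of Cenpe did not hold without cytoplasmic 4EGI-1 array 1 (adjusted p = 0.0578) or in the 6 cytoplasmic arrays alone (0.0943). Incenp changed by 0.36 ± 0.11 in polysomal RNA, with values of 9.44, 9.22 and 9.48 with 4EGI-1, against 8.98 to 9.07 in control cells (adjusted p = 0.0266). Its cytoplasmic change was -0.39 ± 0.11 (adjusted p = 0.0231), and both calls ended when single arrays were left out, with adjusted p up to 0.112 in polysomal and 0.1 in cytoplasmic RNA.

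**Figure D2:**
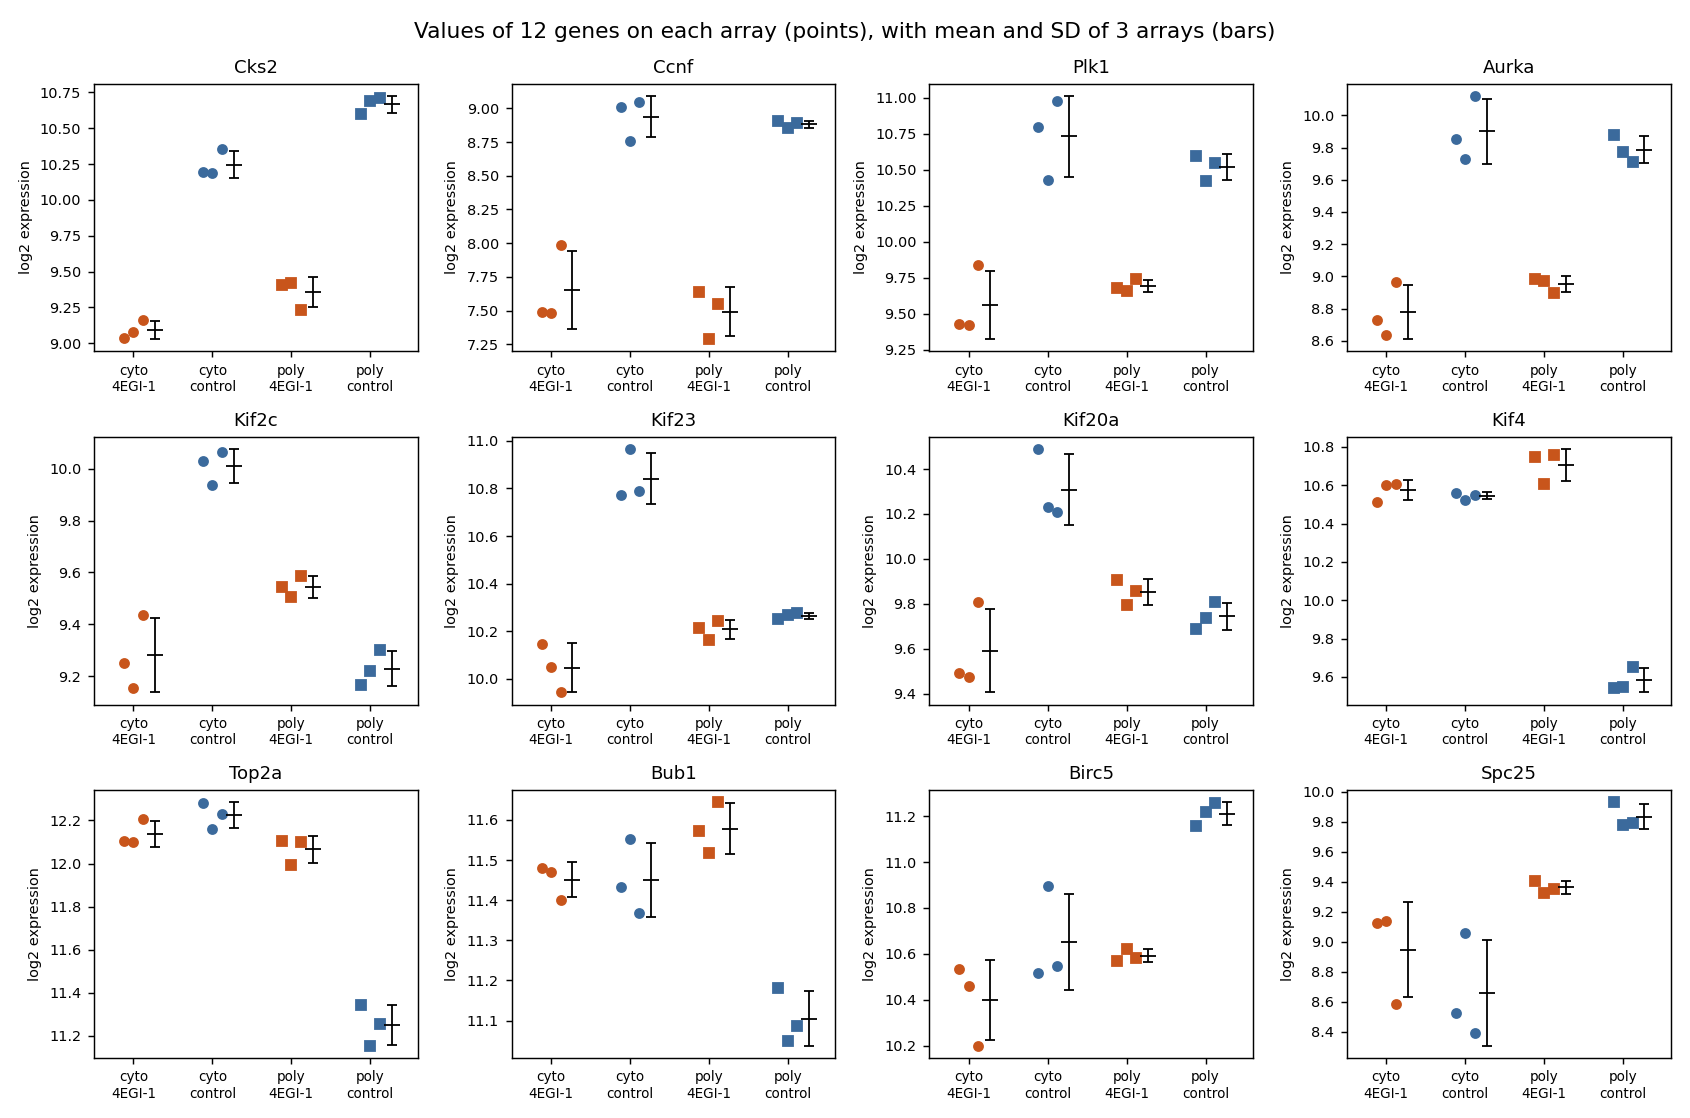
Log2 values of 12 genes on each of the 12 arrays (points, circles for cytoplasmic and squares for polysomal RNA, orange for 4EGI-1 and blue for control), with the mean and SD of 3 arrays beside them. Ccnf, Cks2, Plk1 and Aurka were lower with 4EGI-1 in both fractions, Kif4, Top2a and Bub1 were lower in polysomal control RNA than in the other 3 groups, and y axes differ between genes and do not start at 0.

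Whether the change differed between the fractions was tested as the difference of the effects, the polysomal minus the cytoplasmic change with 4EGI-1. By this test 16 of 52 genes were higher in polysomal RNA than their cytoplasmic change gave (30.8%) and 0 were lower, where 2.31% of all genes tested were higher and 0.607% lower (2.92% either way). The median difference was 0.28 log2, against -0.01 for all genes tested. Of the 52 differences 37 were above 0, against 6192 of all 13180. At an unadjusted p under 0.05, 24 genes were higher and 2 lower, against 887 and 905 of all 13180 genes tested. The count of 16 was 9 without polysomal control array 2, polysomal 4EGI-1 array 1 or polysomal 4EGI-1 array 3, and 10 without cytoplasmic control array 1, cytoplasmic 4EGI-1 array 1, cytoplasmic 4EGI-1 array 2 or polysomal control array 3. Of all genes tested, 179 to 243 were higher in these fits, against 305 in the main fit. In all 22 alternatives 9 genes kept the call, namely Anln, Cenpe, Kif15, Kif20a, Kif23, Kif2c, Kif4, Top2a and Tpx2.

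Sorted by both calls, 16 genes fell in both fractions, and none of them passed the difference, which ran from -0.16 to 0.45 log2. They were Aurka, Bub3, Ccnb2, Ccnf, Cdc20, Cdc25c, Cdk1, Cenpa, Ckap2, Cks2, Ect2, Fam83d, Kif22, Nek2, Plk1 and Prc1. Both calls of Cenpa, which encodes the centromere histone, were fragile. The cytoplasmic one was lost in 6 of 23 alternatives (adjusted p up to 0.147). The polysomal one was lost in 7, among them the loss of any 1 polysomal array (up to 0.0832). It held in the 6 polysomal arrays alone, where the SD was 0.056 with 4EGI-1 and 0.051 in control cells. In cytoplasmic RNA these SDs were 0.352 and 0.339, and the main fit uses 1 spread per gene for both fractions. The polysomal call of Cdc25c was also lost in 7 (adjusted p up to 0.133), and the cytoplasmic call of Prc1 in the 6 cytoplasmic arrays alone (0.0533). A further 11 genes fell in cytoplasmic RNA and did not pass in polysomal RNA. In 6 of these, Anln, Aspm, Bub1b, Hmmr, Kif20a and Kif23, the difference passed, and in Cenpf, Kif18a, Kif20b, Ttk and Ube2c it did not. The cytoplasmic calls of Kif18a and Kif20b ended in the 6 cytoplasmic arrays alone (adjusted p = 0.0632 and 0.0975). Cenpe, Incenp, Kif2c and Tpx2 fell in cytoplasmic and rose in polysomal RNA. Another 8 genes rose in polysomal RNA without passing in cytoplasmic RNA: Bub1, Kif14, Kif15, Kif4, Mki67 and Top2a with a difference that passed, and Kif11 and Ndc80 with one that did not. Birc5, Ccna2, Cdc25b, Mad2l1, Pttg1 and Spc25 fell in polysomal RNA without passing in cytoplasmic RNA, with differences of -0.76 to -0.08 that did not pass. Aurkb, Cdca8, Cks1b, Espl1, Nuf2, Nusap1 and Racgap1 passed in neither fraction in the main fit. In the 6 polysomal arrays alone Espl1 also rose (adjusted p = 0.00442). Aurkb (0.00964), Ube2c (0.0104), Kif18a (0.011), Aspm (0.0132) and Nuf2 (0.0423) also fell there. In that fit 20.4% of all genes tested fell and 17.8% rose.

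Among the 16 genes that passed, the 8 largest differences were those of Kif4 (1.09 ± 0.10 log2), Kif2c (1.04 ± 0.12), Top2a (0.90 ± 0.11), Kif20a (0.83 ± 0.14), Incenp (0.75 ± 0.16), Kif23 (0.74 ± 0.11), Cenpe (0.69 ± 0.12) and Kif15 (0.61 ± 0.11), with adjusted p from 6.55e-05 to 0.0164. Espl1 (0.63 ± 0.22, adjusted p = 0.193) and, below 0, Spc25 had differences of like size that did not pass. Kif2c encodes a kinesin that takes microtubules apart at the centromere. Its cytoplasmic values were 9.25, 9.15 and 9.44 with 4EGI-1, against 10.03, 9.94 and 10.06 in control cells (-0.73 ± 0.08, adjusted p = 2.9e-05). Its polysomal values were 9.54, 9.50 and 9.59 with 4EGI-1, against 9.17, 9.22 and 9.30 in control cells (0.31 ± 0.08, adjusted p = 0.0114). The groups did not overlap in either fraction, and the polysomal call was lost when control array 1 of that fraction (adjusted p = 0.054) or 4EGI-1 array 3 (0.0502) was left out.

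Kif20a and Kif23, kinesins needed for cell division at the midzone, fell in cytoplasmic RNA while their polysomal change did not pass. Kif20a had cytoplasmic values of 9.49, 9.48 and 9.81 with 4EGI-1, against 10.49, 10.23 and 10.21 in control cells (-0.72 ± 0.10, adjusted p = 0.00018). Its polysomal values were 9.91, 9.79 and 9.86 with 4EGI-1, against 9.69, 9.74 and 9.81 in control cells (0.11 ± 0.10, adjusted p = 0.499). Kif23 had polysomal values of 10.21, 10.17 and 10.24 with 4EGI-1, against 10.25, 10.27 and 10.28 in control cells (-0.06 ± 0.08, adjusted p = 0.678). Both genes thus had lower RNA levels with no polysomal change that passed.

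By role, the groups were small, and no test was made between them. Of all genes tested 10.1% rose and 7.79% fell in cytoplasmic RNA, and 13% rose and 12.1% fell in polysomal RNA. By the difference 2.31% were higher and 0.607% lower. Of the 8 tested genes of Cdk1 and its partners (Cdk1, the cyclin genes Ccna2, Ccnb2 and Ccnf, Cks1b, Cks2, and the phosphatase genes Cdc25b and Cdc25c), 5 fell in cytoplasmic and 7 in polysomal RNA. Of the 7, Ccna2 lost its call without polysomal control array 1 or 2 or 4EGI-1 array 2 or 3 (adjusted p = 0.0581 to 0.065), and Cdc25c as given above. None passed the difference in either direction, also at an unadjusted p under 0.05, and the differences ran from -0.24 to 0.15. The entry kinases Plk1, Aurka and Nek2 fell in both fractions. Nek2, which separates the centrosomes, changed by -0.46 ± 0.10 in cytoplasmic and -0.47 ± 0.10 in polysomal RNA (adjusted p = 0.00453 and 0.00256).

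All 10 kinesin genes had a difference above 0, from 0.28 to 1.09 log2, where 6192 of all 13180 genes tested lay above 0. Of the 10, 6 passed (Kif14, Kif15, Kif20a, Kif23, Kif2c and Kif4), or 60%, against 2.31% of all genes tested. At an unadjusted p under 0.05, 9 lay above 0, against 887 of 13180. Their median change was -0.50 in cytoplasmic and 0.18 in polysomal RNA, 6 fell in cytoplasmic RNA, and 5 rose and 1 fell in polysomal RNA. The one that fell in both was Kif22 (-0.34 ± 0.10 in polysomal RNA, adjusted p = 0.0164), whose polysomal call ended without polysomal control array 1 (0.059) or 3 (0.0723) or 4EGI-1 array 2 (0.0768). Kif11, the motor that pushes the spindle poles apart, rose in polysomal RNA (0.35 ± 0.08, adjusted p = 0.00391) with a cytoplasmic change of -0.05. Its difference of 0.40 ± 0.11 did not pass (adjusted p = 0.076).

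**Figure D3:**
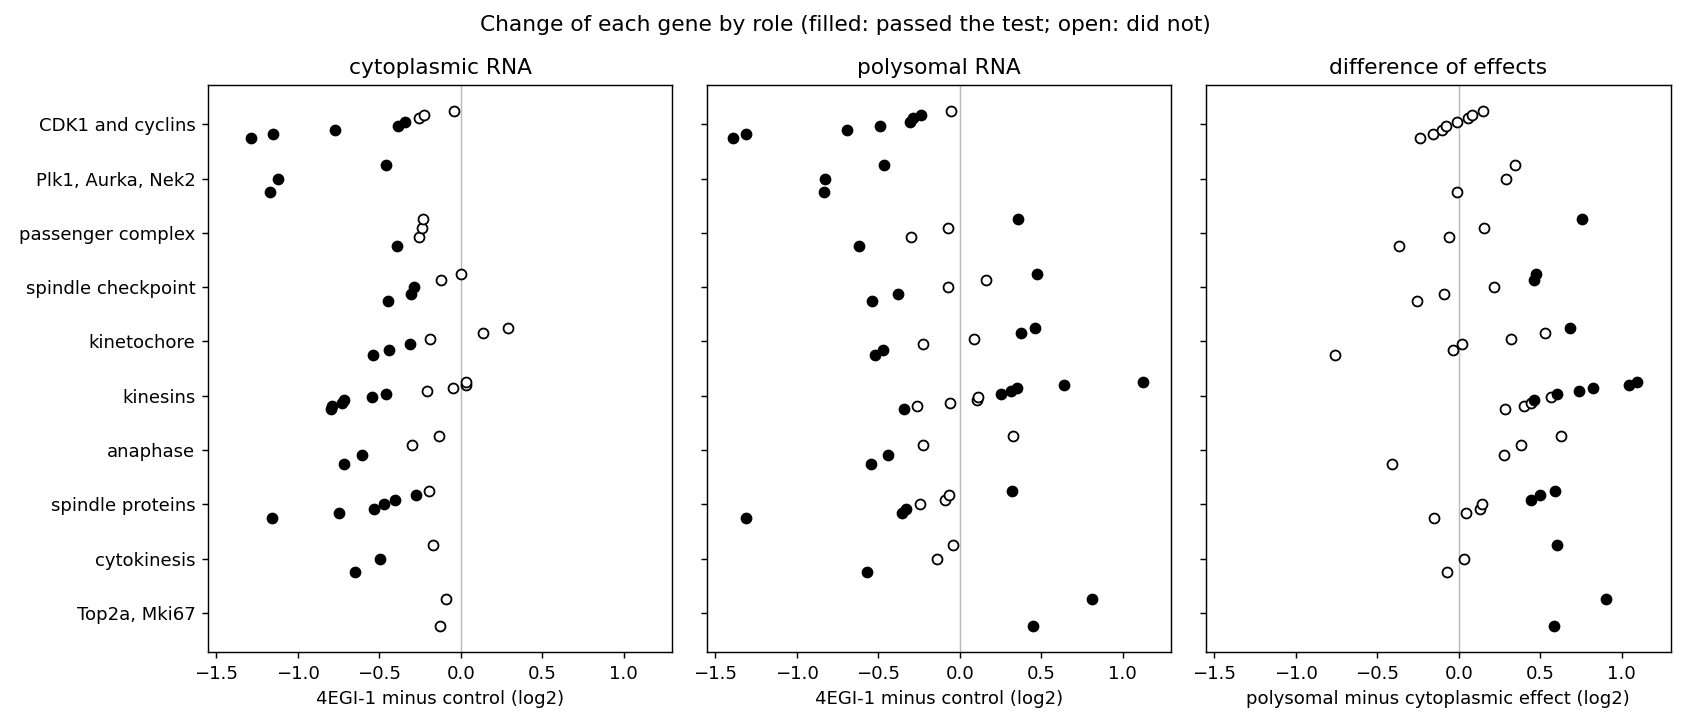
Change of each of 52 genes with 4EGI-1 in cytoplasmic RNA, in polysomal RNA, and the difference of these (x axes, log2), by role (y axis), with filled points for genes that passed the test. The kinesin points lie right of 0 in the panel of differences, from 0.28 to 1.09, while the 8 points of Cdk1 and its partners lie between -0.24 and 0.15.

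The passenger complex was split among its 4 genes. Incenp rose and Birc5 fell in polysomal RNA, as given above, while Aurkb, its kinase, had -0.30 ± 0.11 (adjusted p = 0.0616) and Cdca8, its borealin subunit, had -0.07 ± 0.08 (adjusted p = 0.604). Of 5 checkpoint genes, the mitotic kinase gene Ttk, Bub1b and Bub3 fell in cytoplasmic RNA, by 0.29, 0.30 and 0.45 log2. In polysomal RNA Bub3 fell by 0.54 ± 0.09 (adjusted p = 0.000498) and Mad2l1, whose protein inhibits Cdc20, fell by 0.38 ± 0.09 (adjusted p = 0.0057). Bub1b, which acts with it, had 0.16 ± 0.08 (adjusted p = 0.164). The calls of Ttk and Bub1b in cytoplasmic RNA ended in the 6 cytoplasmic arrays alone (adjusted p = 0.0943 and 0.0847).

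Among 6 kinetochore genes 3 fell in cytoplasmic RNA, where 7.79% of all genes tested fell. In polysomal RNA 2 rose and 2 fell, where 13% of all genes tested rose and 12.1% fell. The 3 that fell in cytoplasmic RNA, Cenpa, Cenpe and Cenpf, all lost the call in the 6 cytoplasmic arrays alone (adjusted p = 0.137, 0.0943 and 0.0678). Ndc80, Nuf2 and Spc25 encode subunits of 1 complex, and their polysomal changes were 0.46, -0.23 and -0.47 log2. Spc25 had the lowest difference of all 52 genes, -0.76 ± 0.22, which did not pass (adjusted p = 0.0985). Its cytoplasmic values spread widely, at 9.12, 9.14 and 8.58 with 4EGI-1, against 8.53, 9.06 and 8.39 in control cells. Its polysomal values were 9.41, 9.33 and 9.35 with 4EGI-1, against 9.93, 9.78 and 9.79 in control cells (-0.47 ± 0.16, adjusted p = 0.0392). The difference of Spc25 passed without cytoplasmic control array 2 (adjusted p = 0.0065) or cytoplasmic 4EGI-1 array 3 (0.00968), the arrays that stand apart in its values, and also with a replicate block (0.0405) and with array weights (8.29e-05). Its polysomal call ended without any 1 of the 6 polysomal arrays (adjusted p = 0.0769 to 0.132). That call held in the 6 polysomal arrays alone. The polysomal SD was 0.041 with 4EGI-1 and 0.084 in control cells, against 0.316 and 0.351 in cytoplasmic RNA.

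Of 4 genes of anaphase, Cdc20, which activates the anaphase-promoting complex, and Ube2c, its ubiquitin-conjugating enzyme, fell in cytoplasmic RNA, by 0.72 ± 0.14 and 0.61 ± 0.11 log2 (adjusted p = 0.00197 and 0.00143). Pttg1, which encodes securin, fell in polysomal RNA (-0.55 ± 0.15, adjusted p = 0.0142), as did Cdc20 (-0.44 ± 0.14, adjusted p = 0.0272). Espl1, which encodes the separase that securin inhibits, had changes of -0.30 and 0.33 that did not pass (adjusted p = 0.218 and 0.157). Its polysomal rise passed in the 6 polysomal arrays alone (adjusted p = 0.00442). The polysomal calls of Pttg1 and Cdc20 ended when single polysomal arrays were left out, with adjusted p up to 0.0604 and 0.106.

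Of 7 other spindle genes, 6 fell in cytoplasmic RNA, where 7.79% of all genes tested fell, and Nusap1 did not pass (-0.19 ± 0.08, adjusted p = 0.114). Tpx2, the activator of Aurora A at the spindle, changed by -0.27 ± 0.08 in cytoplasmic and 0.32 ± 0.08 in polysomal RNA (adjusted p = 0.0205 and 0.00528), with a difference of 0.59 ± 0.11 (adjusted p = 0.00583). Its cytoplasmic call ended in the 6 cytoplasmic arrays alone (adjusted p = 0.115) and without cytoplasmic control array 1 (0.051), 4EGI-1 array 2 (0.0607) or 4EGI-1 array 3 (0.0534). Aspm, a spindle pole protein, had a difference of 0.50 ± 0.12 (adjusted p = 0.042) and Hmmr, a microtubule-binding protein, one of 0.44 ± 0.10 (adjusted p = 0.0305), and both calls ended when single arrays were left out, with adjusted p up to 0.128 and 0.102. Anln, the contractile ring protein anillin, fell in cytoplasmic RNA (-0.65 ± 0.08, adjusted p = 6.68e-05), and its difference was 0.60 ± 0.11 (adjusted p = 0.00844).

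How far each message was in polysomes relative to its cytoplasmic value was compared within each treatment. In 4EGI-1 cells 17 of 52 genes were higher and 2 lower in polysomal RNA, where 9.56% of all genes tested were higher and 7.15% lower. In control cells 13 were higher and 16 lower, where 16.7% of all genes tested were higher and 12.2% lower. The SD over the 52 genes was 0.244 log2 with 4EGI-1, against 0.469 in control cells, and over all genes tested it was 0.247 with 4EGI-1, against 0.325 in control cells. The count of 17 was 8, 10 and 9 without polysomal 4EGI-1 array 1, 2 or 3 and 11 without cytoplasmic 4EGI-1 array 2. Of all genes tested, 549, 884, 676 and 894 were higher in these fits, against 1260 in the main fit. With arrays centred on their medians 28 of the 52 were higher and 1 lower in 4EGI-1 cells. With that centring 16.7% of all genes tested were higher and 3.24% lower. A shift shared by all messages is not seen in normalised values.

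**Figure D4:**
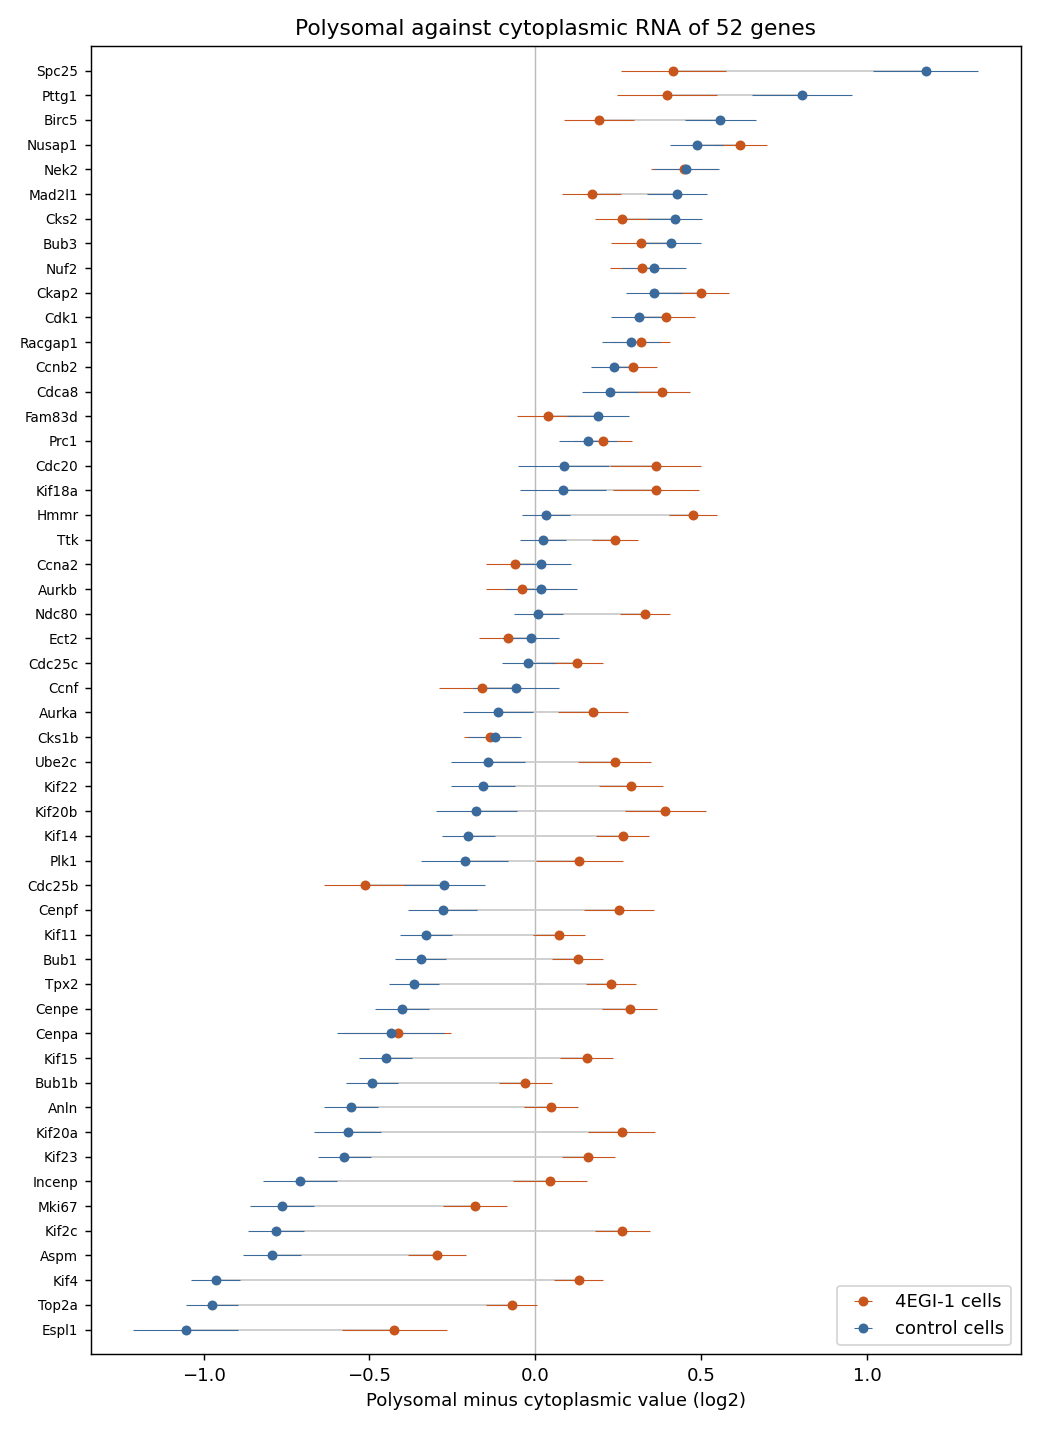
Polysomal minus cytoplasmic value (x axis, log2, with standard errors from the fit) of 52 genes in 4EGI-1 cells (orange) and control cells (blue), ordered by the control value. Control values run from -1.05 (Espl1) to 1.18 (Spc25), and 4EGI-1 values from -0.51 (Cdc25b) to 0.62 (Nusap1).

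The lowest values in control cells were those of Espl1, Top2a, Kif4, Aspm, Kif2c and Mki67. Espl1 had -0.42 with 4EGI-1 and -1.05 in control cells, where polysomal values were 7.69, 7.48 and 7.51 and cytoplasmic values 8.78, 8.21 and 8.84. Top2a had -0.07 with 4EGI-1 and -0.97 in control cells, and Kif4 had 0.13 with 4EGI-1 and -0.96 in control cells. Aspm had -0.30 with 4EGI-1 and -0.79 in control cells. Kif2c had 0.26 with 4EGI-1 and -0.78 in control cells, and Mki67 had -0.18 with 4EGI-1 and -0.76 in control cells. All 6 passed in control cells (adjusted p from 4.8e-07 to 0.00018), and of them Aspm and Kif2c also passed in 4EGI-1 cells, on opposite sides of 0 (adjusted p = 0.0321 and 0.0438).

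At the other end, control cells had the highest values for Spc25, Pttg1, Birc5, Nusap1, Nek2 and Mad2l1. Spc25 had 0.42 with 4EGI-1 and 1.18 in control cells, and Pttg1 had 0.40 with 4EGI-1 and 0.80 in control cells. Birc5 had 0.19 with 4EGI-1 and 0.56 in control cells, and Mad2l1 had 0.17 with 4EGI-1 and 0.43 in control cells. These 4 were nearer 0 with 4EGI-1, by values whose difference did not pass, while Nusap1 had 0.62 with 4EGI-1 and 0.49 in control cells and Nek2 had 0.45 with 4EGI-1 and 0.46 in control cells. Genes picked as extremes of the control values, at either end, can lie nearer 0 with 4EGI-1 through the picking alone. The polysomal values of Nusap1, a microtubule-bundling protein, were 11.46, 11.31 and 11.39 with 4EGI-1 and 11.49, 11.36 and 11.50 in control cells, next to cytoplasmic values of 10.80, 10.80 and 10.71 with 4EGI-1 and 10.85, 11.00 and 11.04 in control cells. Across the 52 genes the values of the treatments, which share no arrays, correlated with Pearson's r of 0.569 and Spearman's rho of 0.614, against 0.72 and 0.669 over all genes tested. Genes are not independent replicates, and the groups share scaling and amplification.

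The genes that differed between fractions were spread over short and long genes unevenly. The span of the gene in RefSeq (GRCm38.p6), introns included, correlated across the 52 genes with the difference of effects at r = 0.521 and rho = 0.555, against 0.131 and 0.108 over 13140 genes. With the polysomal change it correlated at 0.515 and 0.581, against 0.159 and 0.164 over all, and with the cytoplasmic change at 0.174 and 0.166, against 0.0697 and 0.0966. Kif4 spans 101207 bases and Kif15 67653, with differences of 1.09 and 0.61, while Cks2 spans 5431 and Cdc20 4443, with differences of -0.16 and 0.28. Kif20a is an exception, with 8654 bases and a difference of 0.83. Span is not message length, and this is a description across genes that share arrays.

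Top2a, Cks2 and Kif14 had more than 1 probe set of their own. The bright Top2a probe set, the one used above, had a polysomal change of 0.82 ± 0.08 when all 20856 probe sets above the filter level were fitted (adjusted p = 2.58e-05). The other, with a mean of 5.19 below the filter level and so not tested, had -0.62 in cytoplasmic and -0.20 in polysomal RNA. Its polysomal values were 4.39, 4.49 and 4.58 with 4EGI-1, against 4.80, 4.59 and 4.68 in control cells. The mean of both had a polysomal change of 0.31 that did not pass (adjusted p = 0.0727). A further 2 probe sets are listed with both Top2a and Hibadh and so name no single gene. One, with a mean of 6.06, had changes of -0.28 ± 0.14 in cytoplasmic (adjusted p = 0.252) and -0.38 ± 0.14 in polysomal RNA (adjusted p = 0.0907), opposite in sign to the polysomal rise of the bright probe set. The other, with a mean of 3.68 below the filter level, had 0.03 in cytoplasmic and 0.34 in polysomal RNA.

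The 3 probe sets of Cks2 gave the same direction in both fractions. Their cytoplasmic changes were -1.15, -1.21 and -1.07 and their polysomal changes -1.31, -1.74 and -1.54 (adjusted p from 1.55e-06 to 0.00016 over both). The sources used here do not say which locus each of the 3 reports. The second probe set of Kif14, a midbody kinesin, had a mean of 4.69, below the filter level, and a polysomal change of -0.44, against 0.26 ± 0.08 for the bright one. The polysomal rise of Kif14 (adjusted p = 0.0292) became -0.09 with the mean of both (adjusted p = 0.455), and the call ended when single polysomal arrays were left out (adjusted p up to 0.131).

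**Figure D5:**
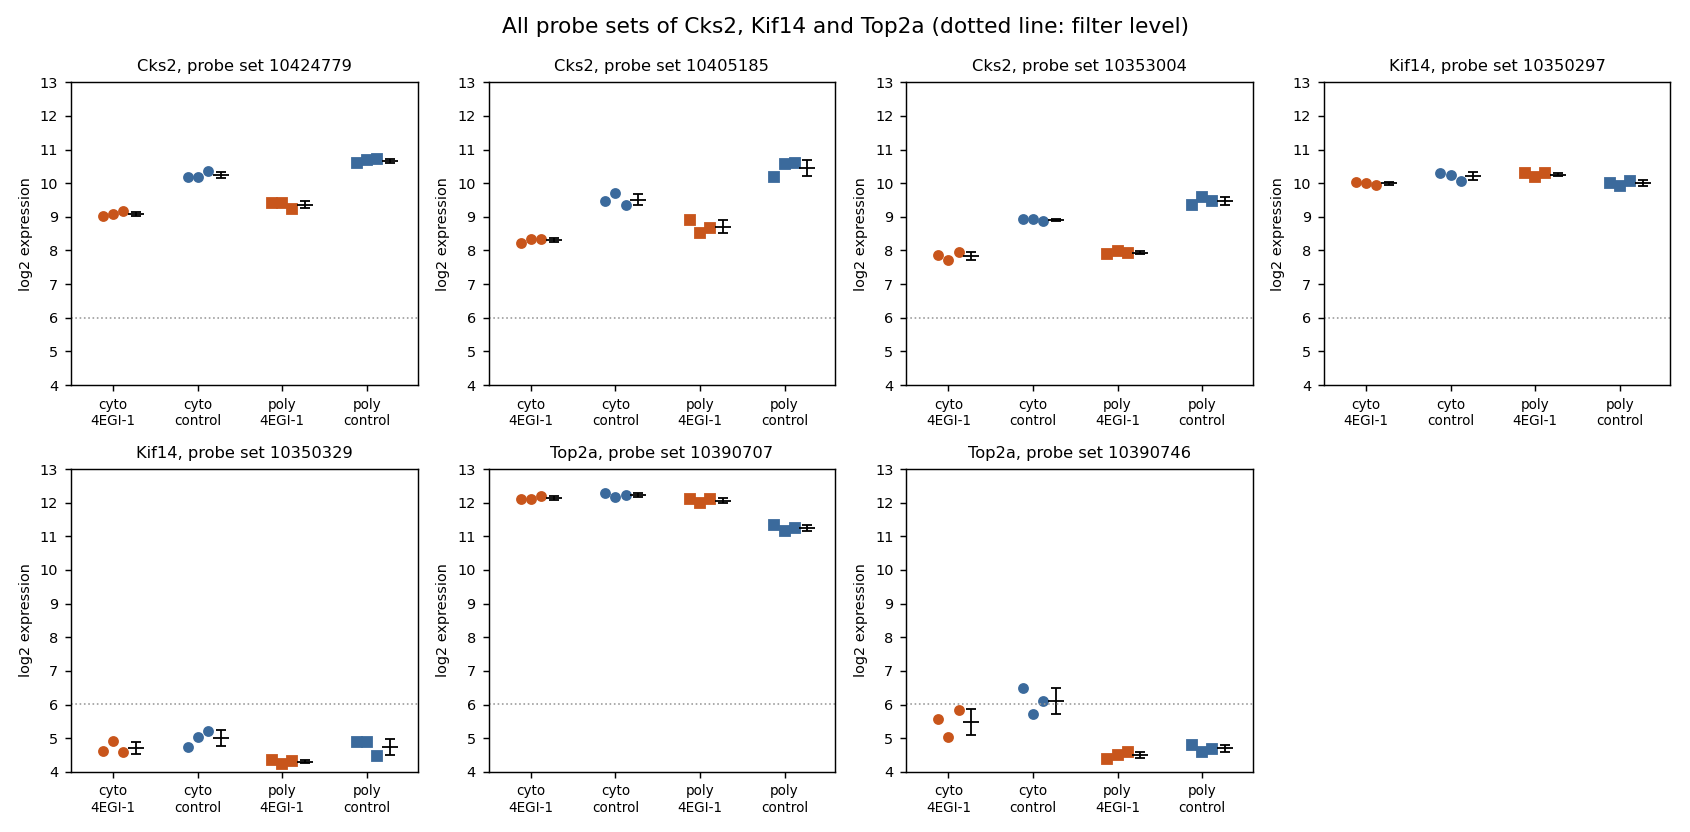
Log2 values on each array (points), with mean and SD of 3 arrays, of every probe set that carries the symbol Cks2, Kif14 or Top2a alone, by group (x axis), with the filter level as a dotted line. The 3 Cks2 probe sets are lower with 4EGI-1 in both fractions, and the second probe sets of Kif14 and Top2a lie at 4.69 and 5.19 on average, below the line.

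Other genes of the same processes were counted in 6 lists by complex or step. Of all genes tested 10.1% rose and 7.79% fell in cytoplasmic RNA, and 13% rose and 12.1% fell in polysomal RNA. By the difference 2.31% were higher and 0.607% lower. At an unadjusted p under 0.05, 2004 rose and 2016 fell of 13180 in cytoplasmic RNA, and 2201 and 2422 in polysomal RNA. Of 17 subunits and activators of the anaphase-promoting complex, 0 rose and 1 fell (5.88%) in cytoplasmic RNA (2 and 2 at an unadjusted p under 0.05). In polysomal RNA 3 rose and 3 fell (17.6% each). The one that fell in cytoplasmic RNA was Fzr1, an activator of late mitosis and G1 (-0.48 ± 0.11, adjusted p = 0.00637). Anapc1 (0.45 ± 0.07) and Anapc2 (0.52 ± 0.12), core subunits, rose in polysomal RNA. Of 24 condensin and cohesin genes, 2 rose (8.33%) and 1 fell (4.17%) in cytoplasmic RNA. In polysomal RNA 9 rose (37.5%) and 0 fell (11 and 0 at an unadjusted p under 0.05). By the difference 4 were higher (16.7%) and 0 lower. The condensin genes Ncapd3 (0.96 ± 0.08), Ncapg (0.71 ± 0.10) and Ncaph (0.55 ± 0.09) rose in polysomal RNA, and each also passed the difference.

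Of 29 tested genes of the inner and outer kinetochore other than the members, 6 rose (20.7%) and 4 fell (13.8%) in cytoplasmic RNA. In polysomal RNA 7 rose (24.1%) and 4 fell (13.8%), and by the difference 2 were higher and 1 lower. Kntc1, a checkpoint protein of the outer kinetochore, rose in polysomal RNA (0.89 ± 0.07), Cenpl fell (-0.57 ± 0.10), and Spag5, a spindle protein, had a difference of 0.94 ± 0.15. Of 31 centrosome and spindle genes, 6 rose (19.4%) and 5 fell (16.1%) in cytoplasmic RNA. In polysomal RNA 10 rose (32.3%) and 3 fell (9.68%), with 6 higher by the difference (19.4%). Ckap5, a microtubule polymerase, rose in polysomal RNA by 1.28 ± 0.08, Dlgap5, a spindle assembly protein, by 0.96 ± 0.07 and Cenpj, of the centriole, by 0.88 ± 0.08. Their adjusted p-values were from 1.57e-07 to 1.78e-06.

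Of 19 regulators of G2 and mitosis, 1 rose (5.26%) and 3 fell (15.8%) in cytoplasmic RNA. In polysomal RNA 2 rose (10.5%) and 4 fell (21.1%), where 13% of all genes tested rose and 12.1% fell. None of the 19 passed the difference, also at an unadjusted p under 0.05. Gadd45a, a stress-induced inhibitor of Cdk1, had changes of 1.17 ± 0.14 in cytoplasmic and 1.18 ± 0.14 log2 in polysomal RNA. Chek2, a checkpoint kinase, changed by -0.45 ± 0.09 and -0.58 ± 0.09, and the phosphatase gene Cdc25a by -0.49 ± 0.10 and -0.39 ± 0.10, and all of these passed. Of 53 genes of the G1/S transition and replication, 4 rose (7.55%) and 6 fell (11.3%) in cytoplasmic RNA. In polysomal RNA 13 rose and 13 fell (24.5% each). By the difference 10 were higher (18.9%) and 1 lower, where 2.31% of all genes tested were higher and 0.607% lower. The polysomal rises of Pole (1.37 ± 0.10), Uhrf1 (0.93 ± 0.08) and Rrm1 (0.81 ± 0.08) had the smallest p-values of this list. The members' median cytoplasmic change of -0.36 stood beside medians of -0.08 to 0.14 for these 6 lists.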

How the data were processed

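RNA was measured on 12 single-colour arrays. The deposited table holds 1 log2 value per probe set and array for 34760 probe sets, made by the authors with RMA, a tool named in the submitters' processing notes, whose version is not given in the sources used here. Per the labels' protocols the RNA was amplified (NuGEN) before hybridisation. Gene symbols came from the platform annotation, updated with the RefSeq gene table (GRCm38.p6): 21640 had 1 symbol, 1321 several and 11799 none. Of 954 genes with several probe sets the brightest was used. The filter on dim genes, set at percentile 40 of the probe set means, removed 6757 genes.

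Group means over all 12 arrays were fitted with limma 3.58.1 in R 4.3.3 (lmFit, eBayes without trend), with Benjamini-Hochberg adjustment over 13180 genes and a threshold of 0.05. All adjusted p-values of genes come from this fit unless a setting is named. Errors beside changes are standard errors of the fit. The scripts were tested on simulated data. The number of arrays limits the precision, and array medians lay between 6.40 and 6.56. The members and gene lists were chosen with earlier results of these data known. All members may be named, with values on every array for the 8 largest falls and rises per treatment comparison, the 8 largest differences that passed and the 6 extremes either way in control cells, and up to 3 genes with the smallest p from each other list.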

Additional observations from a re-analysis of the deposited data

Results flagged for a closer look

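For 16 genes the change with 4EGI-1 differed between polysomal and cytoplasmic RNA by the test of the difference itself, in limma's fit adjusted over all genes tested, with polysomal minus cytoplasmic effects above 0 in all 16. The kinesin genes were Kif4 (1.09), Kif2c (1.04), Kif20a (0.83), Kif23 (0.74), Kif15 (0.61) and Kif14 (0.46). The others were Top2a (0.90), Incenp (0.75), Cenpe (0.69), Anln (0.60), Tpx2 (0.59), Mki67 (0.58), Aspm (0.50), Bub1 (0.47), Bub1b (0.46) and Hmmr (0.44), all in log2. Of these, 9 passed in all 22 alternatives, with adjusted p of at most 0.0462. The calls of Incenp, Bub1, Bub1b, Kif14, Hmmr, Aspm and Mki67 ended when single arrays were left out, with values that stayed above 0. All of these but that of Incenp also ended without a filter, those of Hmmr, Aspm and Mki67 with arrays centred on their medians, and that of Kif14 with the mean of all probe sets (0.157, adjusted p = 0.621). In that fit 305 of 13180 genes, 2.31%, had a difference above 0 that passed. Whether the lower spread between polysomal arrays (median SD 0.0627 with 4EGI-1 and 0.0675 in control RNA, against 0.116 and 0.122 in cytoplasmic RNA) plays a part in these calls was not tested.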

How the results depend on the processing

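Of the genes that passed, 21 of 31 in cytoplasmic RNA and 23 of 34 in polysomal RNA kept the call in all 23 alternatives, and 9 of 16 in the difference in all 22. The 1 reversal was Kif14 in polysomal RNA, with a change of -0.094 from the mean of all probe sets (adjusted p = 0.455). Leaving out 1 array at a time, 27 to 35 genes fell and 0 to 1 rose in cytoplasmic RNA, 15 to 24 fell and 9 to 12 rose in polysomal RNA, and 9 to 19 were higher and 0 to 2 lower by the difference. Polysomal RNA was then above cytoplasmic RNA in 8 to 23 genes and below it in 0 to 4 with 4EGI-1, and above in 9 to 14 and below in 16 to 19 in control cells. Without a filter, 10 genes were higher by the difference, against 214 of all 19937. With 4EGI-1, 9 were then higher and 1 lower in polysomal RNA, against 969 and 769 of all 19937. Centring on array medians made the 9 and 1 into 28 and 1. Array weights gave 1 rise in cytoplasmic RNA, 26 higher and 3 lower by the difference, and 29 higher and 4 lower with 4EGI-1. The last 2 counts stood against 2300 and 2372 of all 13180. The labels do not say whether equal array numbers mark a shared culture, and the main fit does not pair arrays. Correlations of deviations from group means ran from -0.216 to 0.562 in cytoplasmic RNA for equal numbers, against -0.70 to 0.412 for unequal ones. In polysomal RNA they ran from -0.055 to 0.163, against -0.156 to 0.0906. Between fractions they ran from 0.0199 to 0.141, against -0.132 to 0.0089, in control cells. With 4EGI-1 they ran from 0.0187 to 0.228, against -0.209 to 0.143. The design text takes both fractions from the same samples without saying that numbers match. With a replicate block, 32 genes fell in cytoplasmic RNA, 24 fell and 12 rose in polysomal RNA, 18 were higher and 1 (Spc25) lower by the difference, and 21 were higher and 4 lower in polysomal RNA with 4EGI-1. Of all 13180 genes, 1312 then fell in cytoplasmic RNA, and 1812 fell and 1833 rose in polysomal RNA. By the difference 352 of all were higher, and with 4EGI-1 1442 were higher and 1140 lower in polysomal RNA. Over all genes, 731 rose and 369 fell in the 6 cytoplasmic arrays alone, against 1325 and 1027, and 2346 rose and 2685 fell in the 6 polysomal arrays alone, against 1717 and 1599. With array weights 2890 rose and 2667 fell in cytoplasmic RNA, and 1147 were higher and 1691 lower by the difference, against 305 and 80. The difference had 28 lower without a filter, 45 with centring and 120 with the block. With 4EGI-1, centring made 2205 higher and 427 lower in polysomal RNA, against 1260 and 942. The causes were not tested. The comparison with protein length was not run, and gene span, chosen after seeing the data, took its place. In the 150 bases before the start, 36.2% of the members held TTTGAA, against 9.3% of protein-coding genes, and 76.6% held CCAAT, against 30.0%. Signal near the filter level limits Fam83d, and the wider spread of cytoplasmic arrays limits small changes there.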
